A study of Rattus norvegicus with 4 samples.

Results

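The loci described here carry provisional gene names made of the letters LOC or RGD and a number. They were chosen by name: the Ensembl gene name of a transcript where the deposited tables give one, otherwise its AceView gene name, had to begin with LOC or RGD followed by digits. The 3 names RGD1566401, RGD1563912 and RGD1560070 were left out. The rule uses no measured value. It found 1168 loci with 1498 transcripts, out of 17290 loci with 20524 transcripts in all, or 6.76% of the loci.

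The study measured long noncoding RNA (lncRNA) by RNA sequencing in cortical astrocytes of newborn Wistar rats, to compare ischemic preconditioning with no treatment. The 4 libraries form 2 groups of 2, as the sample titles give them. Control cells had no treatment. The other cells went through oxygen-glucose deprivation (OGD) for 45 min, in medium without glucose under 1% O2, and were then kept for 24 h in normal medium and air. Astrocytes of both groups were grown on coverslips set above neurons on small paraffin dots, and total RNA was extracted with Trizol. The labels name no allele, transgene or sort, and do not say whether replicates came from separate cultures, so the p-values speak of the spread between libraries, part or all of which can be technical.

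A LOC number is the placeholder symbol that NCBI builds from a gene's numeric identifier until the gene is given a name. An RGD number plays the same role in the Rat Genome Database. Many such genes have since been named after a human or mouse counterpart, most of them protein-coding, so a transcript listed here as noncoding often lies at a gene that also makes a messenger RNA. The tables cannot separate reads of that messenger RNA from reads of the listed transcript, and the sources used here do not say whether counting used the strand.

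Of the 1168 loci, 611 had LOC numbers and 557 had RGD numbers. They lay on 21 chromosomes, from 19 loci on chromosome 11 to 149 on chromosome 1. A single transcript made up 937 of them. RGD1306063, now Cep15, had the most, with 7. The transcripts were known mainly through NONCODE, with 1364 NONCODE and 134 Ensembl identifiers. Transcripts whose listed length equals their listed span have no intron and are called unspliced here. Of the member transcripts, 531 of 1498 (35.4%) were unspliced by this measure, against 8620 of 19026 (45.3%) of the other transcripts. Their median length was 620.5 bases, against 692 bases for the others. At 192 loci the listed span overlapped that of another listed locus.

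The RefSeq gene table of assembly GRCr8 held 753 of the names, 421 as a former name of a gene, 286 as the gene's number, 42 as its symbol and 4 inside a fused name. The 745 matches on the chromosome given in the deposited tables were kept. Of those, 703 now have a proper symbol in place of the number and 42 are still numbered. RefSeq types 648 of the 745 as protein-coding, 57 as pseudogenes, 2 as transcribed pseudogenes, 37 as lncRNA genes and 1 as a small nuclear RNA gene. The other 423 loci are called here by their number. LOC100125371 is the lncRNA gene Tug1. Its 248, 217, 235 and 195 counts in control 1, control 2, OGD 1 and OGD 2 lie inside the span of a separately listed Tug1 locus with 1301, 1046, 1140 and 904 counts.

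Promoter sequences are shown for 4 of the genes whose loci carry the results below. Kctd17, the numbered locus that differed at an adjusted p under 0.05 in edgeR, had no entry among the promoters used. Fam193a and C3h9orf50 had large differences towards higher counts after OGD, Skida1 had one towards lower counts, and Cnn2 was the most abundant numbered locus. Skida1, at a log2 fold change of -1.78, was not the largest on the lower side, where Zfp280d had -2.04 and Ntaq1 -2.10. With so few chosen genes, the windows cannot show whether a motif goes with the direction of a difference. Each runs 5′ to 3′ on the gene's own strand, from 250 bases before to 50 bases after the gene's start, taken from RefSeq in build GRCr8. Capitals mark each GCGTG, and each CACGC, which is the same motif on the opposite strand. GCGTG and ACGTG form the core that hypoxia-inducible factors bind.
Fam193a: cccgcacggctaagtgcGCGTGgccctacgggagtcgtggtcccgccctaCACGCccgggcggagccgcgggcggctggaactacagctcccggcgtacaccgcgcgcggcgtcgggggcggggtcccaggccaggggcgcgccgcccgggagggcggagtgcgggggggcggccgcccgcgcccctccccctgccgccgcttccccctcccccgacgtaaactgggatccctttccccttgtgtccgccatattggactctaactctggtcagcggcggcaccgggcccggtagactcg
C3h9orf50: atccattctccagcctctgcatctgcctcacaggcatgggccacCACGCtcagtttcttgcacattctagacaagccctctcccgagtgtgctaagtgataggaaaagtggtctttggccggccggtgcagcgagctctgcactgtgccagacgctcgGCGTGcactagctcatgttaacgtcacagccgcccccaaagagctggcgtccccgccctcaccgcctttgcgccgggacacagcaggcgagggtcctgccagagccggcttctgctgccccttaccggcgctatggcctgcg
Skida1: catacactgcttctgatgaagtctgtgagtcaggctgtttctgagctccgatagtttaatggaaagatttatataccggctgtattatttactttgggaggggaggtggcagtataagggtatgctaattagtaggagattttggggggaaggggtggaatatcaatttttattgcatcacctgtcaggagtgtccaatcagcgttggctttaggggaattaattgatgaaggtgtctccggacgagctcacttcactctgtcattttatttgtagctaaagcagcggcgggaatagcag
Cnn2: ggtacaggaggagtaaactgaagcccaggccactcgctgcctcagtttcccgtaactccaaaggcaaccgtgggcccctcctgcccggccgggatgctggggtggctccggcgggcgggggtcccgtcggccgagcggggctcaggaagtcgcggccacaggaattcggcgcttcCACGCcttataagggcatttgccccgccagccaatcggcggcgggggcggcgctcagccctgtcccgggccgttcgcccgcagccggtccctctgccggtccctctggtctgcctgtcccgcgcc

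In GRCr8 these windows are chr14:80606975-80607274, chr3:34484693-34484992, chr17:85715326-85715625 and chr7:10370263-10370562, all on the minus strand. Fam193a had 76.0% G or C with 42 CpG, 2 copies of GCGTG and 8 of GGGCGG, counting both strands and overlapping copies. C3h9orf50 had 62.7% with 20 CpG, 2 copies of GCGTG and 2 of GGGCGG. Skida1 had 44.0% with 7 CpG, no GCGTG and 1 TATAAA. Cnn2 had 71.3% with 31 CpG, 1 GCGTG and 2 GGGCGG. Skida1 thus stood apart from the other 3 windows in base composition. ACGTG was in none of the 4 windows. Windows of 669 numbered loci were matched by gene, and 48.1% of them held GCGTG, against 29.7% of all 33469 promoters in the table. ACGTG was in 25.4% and 19.3%, GGGCGG in 58.6% and 33.1%, and TATAAA in 7.47% and 14.2%. TGACGTCA, the cyclic AMP response element, was in 2.99% and 1.83%, and TGACNNNGC, the core of the antioxidant response element, in 13.2% and 12.1%. The median share of G or C was 59.3% for the numbered loci and 51.7% for all promoters. These windows belong to the gene of each symbol, and a listed transcript need not start there. A match is a description of letters, not of binding.

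Detection was broad, at low levels. At least 1 read was counted in every library at 865 of the 1168 loci (74.1%), against 13624 of all 17290 loci (78.8%). The per-library figures were 1016 and 968 loci in controls 1 and 2, and 1016 and 990 after OGD. No read in any library was counted at 43 loci (3.68%), against 579 of all loci (3.35%). A count of 0 allows up to 3 counts, or 1.13 to 1.19 CPM, the count scaled to a fixed total of lncRNA counts, for counting error only. At least 10 counts in every library were found at 444 loci (38.0%), against 45.4% of all loci.

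**Figure D1:**
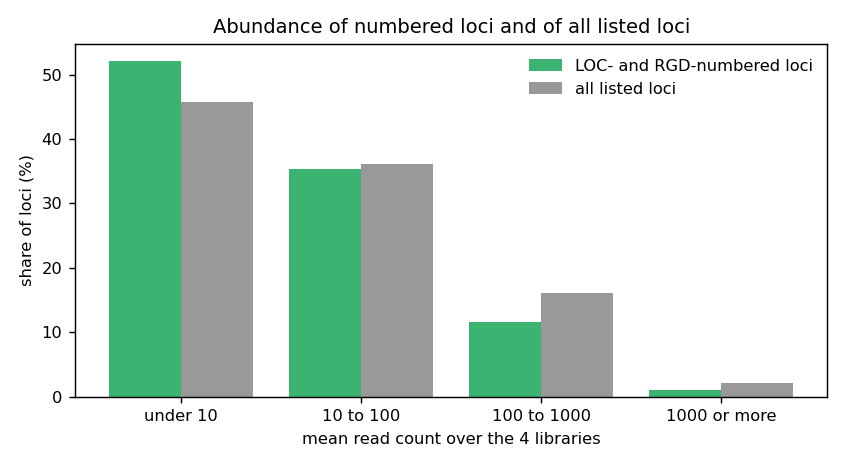
Share of loci in percent (vertical axis, from 0) by mean read count over the 4 libraries (horizontal axis), for the LOC- and RGD-numbered loci and for all listed loci. Of the numbered loci 609 had a mean under 10 counts, 412 a mean of 10 to 100, 135 a mean of 100 to 1000 and 12 a mean of at least 1000.

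The plot of abundance classes sets these means beside those of all loci, of which 7900, 6236, 2785 and 369 fell in the same 4 ranges. The median mean count was 8.75 for the numbered loci and 12.75 for all. Per length, as FPKM (fragments divided by a transcript's length and by the library's total), the median was 0.567 and 0.770. The numbered loci together held 3.06% and 3.19% of lncRNA counts in controls 1 and 2, and 3.10% and 3.16% in OGD 1 and 2. The group means were 3.12% ± 0.0938 and 3.13% ± 0.0425 (SD, n = 2), so the groups overlap. Loci with only unspliced transcripts had a median of 0.451 FPKM in control and 0.518 FPKM after OGD (433 loci). Those with at least 1 spliced transcript had 0.611 and 0.625 FPKM (735 loci).

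A small set of loci held much of the signal. The 10 with the most reads took 27.4% and 33.2% of the counts at numbered loci in controls 1 and 2, and 28.0% and 32.0% in OGD 1 and 2. Of these 10, 6 were unspliced. The first was LOC690976, now Cnn2, named for calponin 2, an actin-binding protein. It lies on chromosome 7 from 12763477 to 12764429 in the tables' coordinates and had 5266 and 6055 counts in the controls, then 5129 and 4853 with OGD. Per length, LOC690976 stood at 221 and 241 FPKM in the controls, then 216 and 204 FPKM with OGD, the highest of all numbered loci in mean FPKM. Per length both OGD values were under both control values, but the groups overlapped on the TMM-scaled counts behind the fold change, which was -0.13 on the log2 scale (SE 0.19).

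RGD1565591 is now Ski, a corepressor of SMAD transcription factors, and RGD1566359 is now C17h5orf24. RGD1565591 measured 37.6 and 40.6 FPKM in the controls, then 34.6 and 37.8 FPKM with OGD. RGD1566359 measured 31.9 and 31.1 FPKM in the controls, then 32.1 and 29.8 FPKM with OGD, and both loci overlapped between groups. LOC680445, now Mbnl2, a regulator of alternative splicing, measured 65.6 and 84.7 FPKM, then 73.0 and 76.7 FPKM. It overlaps the loci flarjer and flawjer, so reads could be shared. RGD1561758, now Atxn1l, a relative of the ataxin 1 gene that binds the repressor capicua, measured 9.85 and 10.4 FPKM in the controls, then 9.75 and 9.46 FPKM with OGD, a log2 fold change of -0.060 (SE 0.19).

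Among loci without a current symbol, LOC690510 measured 44.8 and 49.7 FPKM in the controls, then 50.3 and 58.7 FPKM with OGD, at a log2 fold change of 0.22 (SE 0.23). LOC100911851 measured 22.7 and 22.9 FPKM in the controls, then 20.8 and 21.1 FPKM with OGD, at a log2 fold change of -0.12 (SE 0.18). On the TMM-scaled counts behind the fold changes, the groups overlapped at all 10 of these loci. At LOC108348049 the values were 20.7 and 15.3 FPKM, then 23.9 and 15.6 FPKM. Per length, both number 1 libraries were higher there than both number 2 libraries, as they were at C17h5orf24. The opposite order held per length at Ski and Mbnl2, and at the remaining 2 of the 10. LOC683626, now Lbh, named for a transcription cofactor of limb and heart development, had 9.90 and 51.5 FPKM in the controls, then 18.3 and 46.8 FPKM with OGD. LOC100912578 had 26.5 and 45.1 FPKM, then 31.7 and 53.6 FPKM.

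**Figure D2:**
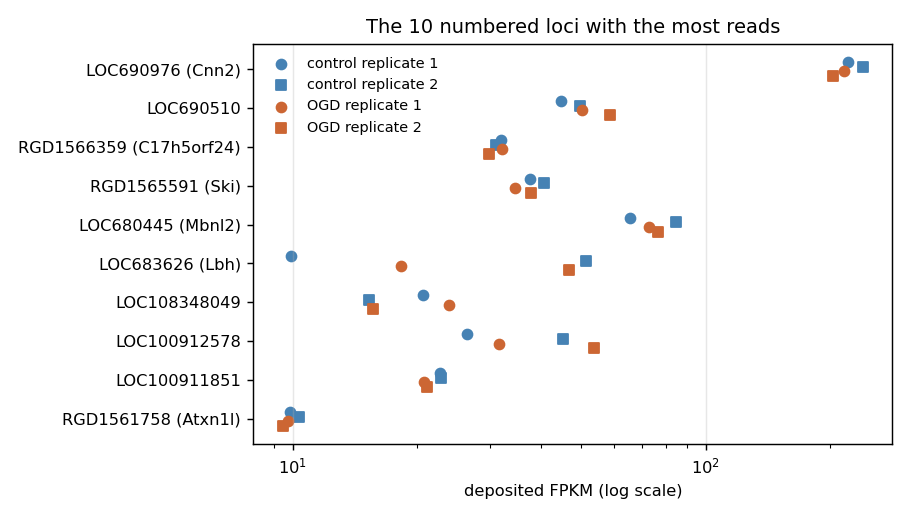
Deposited FPKM on a log scale (horizontal axis) at the 10 numbered loci with the most reads, in each of the 4 libraries; circles are replicate 1, squares are replicate 2. LOC690976 (Cnn2) lies between 204 and 241 FPKM in all libraries, and LOC683626 (Lbh) separates by replicate number.

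Enough reads for a test were found at 579 of the 1168 loci (49.6%), against 9581 of all 17290 (55.4%). Of the LOC loci 282 were tested, and of the RGD loci 297. A single locus differed between OGD and control at an adjusted p under 0.05 in edgeR's quasi-likelihood test. That is 0.173% of the tested members, beside 0.0835% of all tested loci, and it is higher after OGD, as 0.0417% of all loci are. No numbered locus was lower at that threshold, as 0.0417% of all loci are. At an unadjusted p under 0.05 there were 15 numbered loci (2.59%), beside 2.33% of all. Of these, 8 were higher (beside 1.23% of all loci) and 7 lower (beside 1.10%).

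The median log2 fold change over the 579 was 0.051, with quartiles at -0.19 and 0.27. Over all tested loci the median was -0.0018, with quartiles at -0.21 and 0.22. It was 0.027 for LOC loci and 0.073 for RGD loci. The fold change was above 0 at 325 numbered loci and below 0 at 254. Over all tested loci the number above 0 was not counted, and their median of -0.0018 lies close to 0. Whether the numbered loci lean towards higher values was not tested. On TMM-scaled counts, groups did not overlap at 167 numbered loci (28.8%), beside 28.0% of all tested loci. Of these, 94 were higher after OGD (16.2%, beside 14.0% of all) and 73 lower (12.6%, beside 14.0%). A change of at least 2-fold was fitted at 39 numbered loci (6.74%), beside 4.43% of all. The numbered loci were thus close to the background in the counts of groups that do not overlap.

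**Figure D3:**
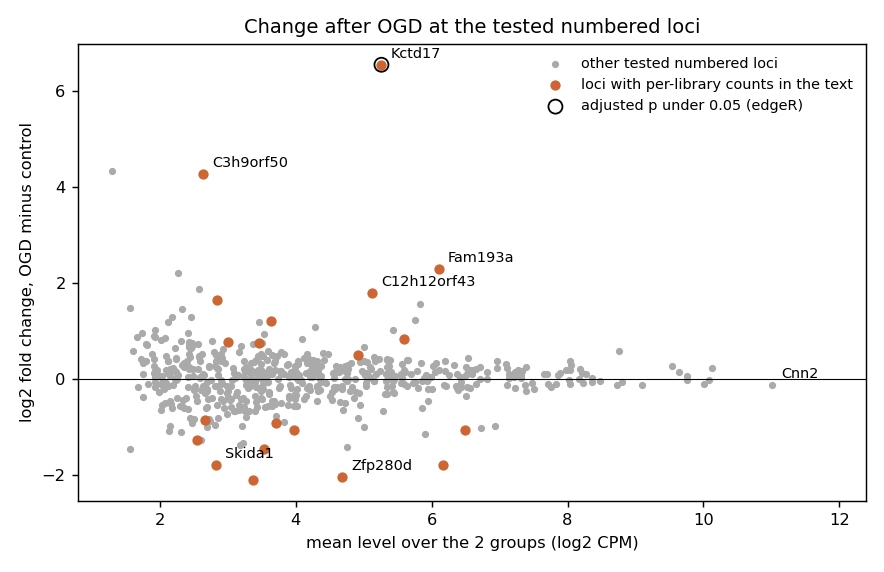
Fitted log2 fold change, OGD minus control (vertical axis), against mean level in log2 CPM (horizontal axis) for the 579 tested numbered loci. Orange points are only the loci picked as higher or lower after OGD, for groups without overlap and the smallest unadjusted p. Other loci with per-library counts in the text are grey, and the ring marks the adjusted p under 0.05. Kctd17, at 6.55, lies above all others, and 540 of the 579 lie under 1 in size.

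The locus that passed was RGD1311154, now Kctd17. Kctd17 encodes an adaptor of the cullin 3 ubiquitin ligase, in which a BTB domain binds the cullin and another part holds the substrate. A known substrate of Kctd17 is trichoplein (Tchp), a protein of the centriole that holds back growth of the primary cilium. The listed transcript is unspliced, lies on chromosome 7 from 119656408 to 119657434 and overlaps no other listed locus. It had 2 and 2 counts in the controls, then 184 and 198 with OGD, or 0.0781 and 0.0738 FPKM against 7.19 and 7.71 FPKM. Both OGD libraries were far above both controls. Controls averaged 0.762 ± 0.0488 CPM and OGD libraries 75.9 ± 9.36 CPM (SD, n = 2), and the log2 fold change was 6.55 (SE 0.34, adjusted p = 0.0226 in edgeR). The ratio of scaled counts was 99.4, with an exact 95% binomial interval of 38.5 to 367 for counting error only.

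The call at RGD1311154 did not hold in every fit. The adjusted p in edgeR was 0.129 without control replicate 1, 0.101 without control replicate 2 and 0.0581 without OGD replicate 1, with log2 fold changes between 6.49 and 6.69. Kctd17 was the one numbered locus with at most 3 counts in both libraries of one group and at least 30 in both of the other. No numbered locus had that contrast in the opposite direction, and none had it between replicate numbers. The share of all loci with that contrast was not computed. Outside the numbered loci, Syn1 also had it, with 2 and 1 counts in the controls, then 98 and 45 with OGD.

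Other listed loci near Kctd17 did not share its contrast. The locus choysor, 129 bases away, had 99 and 100 counts in the controls, then 103 and 78 with OGD (log2 fold change -0.09, SE 0.24). Mpst, named for a sulfurtransferase that makes hydrogen sulfide, had 27 and 8, then 17 and 13 counts. The other 4 loci within 100 kb, shusor, AABR07058498.1, AABR07058501.1 and shosor, had at most 4 counts in any library.

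The Kctd17 pathway was described by a list of 32 genes. It held other Kctd genes, cullin 3, further parts and adaptors of its ligase, trichoplein and Aurka. It also held Gnal, Gnas and Adcy5 of cyclic AMP signalling, for which no locus was listed. Of the 32 genes, 9 were listed by name and 5 were tested, all under names other than LOC or RGD numbers. None passed the adjusted threshold, none had an unadjusted p under 0.05, and DESeq2 called 0. Their median log2 fold change was 0.20, beside -0.0018 over all loci. Keap1, the adaptor that holds the antioxidant factor Nrf2, had 25 and 22 counts in the controls, then 44 and 27 with OGD. Klhl20, a cullin 3 adaptor, had 366 and 372, then 413 and 400 counts. Kctd1, a BTB-domain protein, had 28 and 27, then 41 and 36 counts. These 3 had higher counts in both OGD libraries, by 0.64 (SE 0.35), 0.20 (SE 0.18) and 0.54 (SE 0.29) on the log2 scale. Tchp had 9 and 21, then 19 and 14 counts, and Klhl12 18 and 7, then 11 and 13, both overlapping. The cullin gene itself, Cul3, had at most 3 counts in any library. Among the loci not tested, Aurka had lower counts in both OGD libraries, at 8 and 8, then 3 and 2. Kctd14 had 3 and 7, then 5 and 5 counts, and Kctd11 had 0 in every library.

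DESeq2 called 3 numbered loci (0.518%), beside 0.397% of all. All 3 were higher after OGD, beside 0.230% of all loci, and 0 were lower, beside 0.167%: the 3 are Kctd17, C3h9orf50 and Fam193a. RGD1311084, now C3h9orf50, lies on chromosome 3 from 9629831 to 9630424 and is spliced. It had 2 and 1 counts in the controls, then 32 and 28 with OGD, or 0.322 and 0.152 FPKM against 5.15 and 4.49 FPKM. The groups did not overlap, and the ratio of scaled counts was 20.8, with an exact 95% binomial interval of 6.79 to 104. The log2 fold change was 4.27 (SE 0.50), with an adjusted p of 0.200 in edgeR and 0.0352 in DESeq2. The one other listed locus within 100 kb, RGD1306582, now Ntmt1, had 64 and 47 counts in the controls, then 54 and 48 with OGD.

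RGD1309634, now Fam193a, spans 81515897 to 81563781 on chromosome 14. It had 43 and 78 counts in the controls, then 342 and 240 with OGD, a mean of 23.4 ± 10.9 CPM and 114 ± 20.3 CPM (SD, n = 2). Both OGD libraries were above both controls, at a log2 fold change of 2.29 (SE 0.40). The adjusted p was 0.673 in edgeR and 0.000571 in DESeq2. Its 2 unspliced transcripts moved apart. NONRATT010035.2, from 81515897 to 81517008, had 37 and 59 counts in the controls, then 336 and 215 with OGD. NONRATT010037.2, from 81563435 to 81563781, had 6 and 19, then 6 and 25, and followed the replicate number. The difference at Fam193a therefore lay in the first of these transcripts. Of the other listed loci within 100 kb, MSTRG.10370, 5171 bases away, had 252 and 206 counts in the controls, then 196 and 164 with OGD. MSTRG.10372 had 468 and 381, then 460 and 350, and pawko had 31 and 26, then 19 and 24. Rnf4, 94620 bases away, had 2641 and 3161 counts in the controls, then 2466 and 2724 with OGD. Their log2 fold changes were -0.29 (SE 0.20), -0.013 (SE 0.20), -0.34 (SE 0.36) and -0.11 (SE 0.22). The loci marko, mawko and peeko had at most 11 counts in any library.

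**Figure D4:**
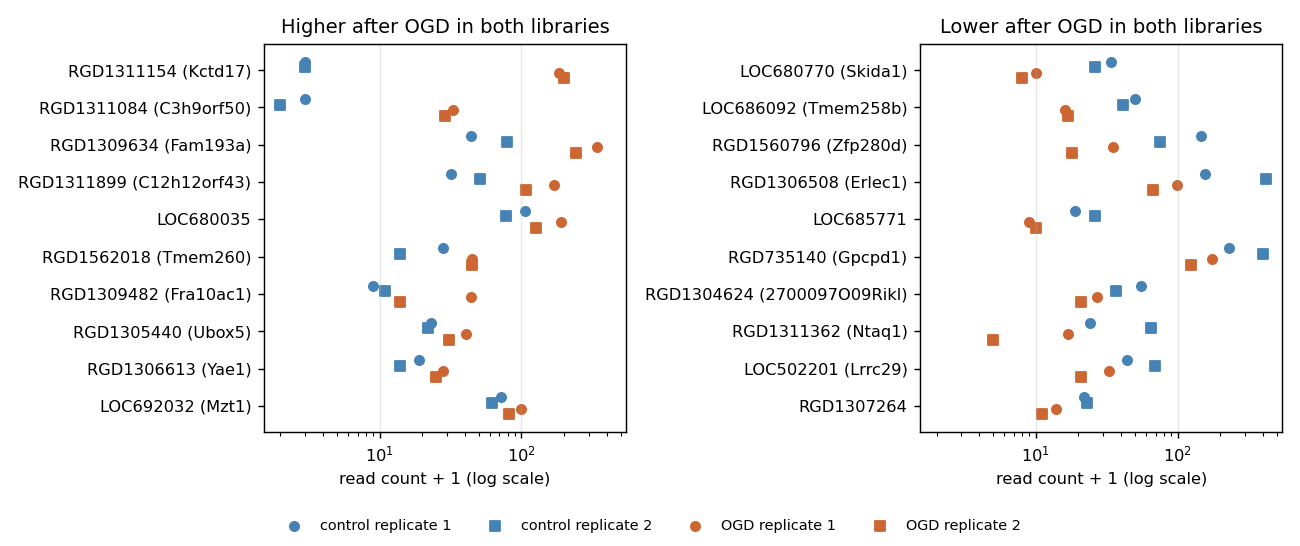
Read count plus 1 on a log scale (horizontal axis) in each library, for the 10 numbered loci higher after OGD (left) and the 10 lower (right) that had groups without overlap, 20 or more counts on average in either group and the smallest unadjusted p. Blue is control, orange is OGD, circles are replicate 1 and squares replicate 2; Kctd17 goes from 2 counts in each control to 184 and 198 after OGD.

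The other 7 loci plotted as higher did not pass in edgeR or DESeq2. RGD1311899, now C12h12orf43 (chromosome 12, 47433356 to 47438930), had 31 and 50 counts in the controls, then 169 and 107 with OGD, at a log2 fold change of 1.80 (SE 0.39). Of its 3 transcripts, NONRATT008064.2 had 1 and 15 counts, then 152 and 75. NONRATT008065.2 had 14 and 14, then 6 and 19, and NONRATT008067.2 had 16 and 21, then 11 and 13. The excess after OGD thus lay in 1 transcript, whose log2 fold change tested on its own was 3.80 (adjusted p = 0.9999 in edgeR). RGD1309482, now Fra10ac1, had 8 and 10, then 43 and 13 counts. In it, NONRATT003743.2 had 0 and 2, then 22 and 0, which is 22 of the 43 counts in OGD replicate 1.

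RGD1562018, now Tmem260, an O-mannosyltransferase gene, had 27 and 13 counts in the controls, then 44 and 44 with OGD, at a log2 fold change of 1.21 (SE 0.41). LOC680035 had 105 and 77, then 190 and 125 counts, at 0.84 (SE 0.27). RGD1305440, now Ubox5, a U-box ubiquitin ligase gene, had 22 and 21, then 40 and 30 counts. These ratios were all smaller than those of Kctd17, C3h9orf50 and Fam193a. RGD1306613, now Yae1, had 18 and 13, then 27 and 24 counts. LOC692032, now Mzt1, which encodes a small component of the gamma-tubulin ring complex, had 71 and 61, then 99 and 81 counts. RGD1311098, now Dnajc22, was picked after its values were seen, since its counts are under the minimum set for naming loci here: it had 1 and 0 counts in the controls, then 14 and 10 with OGD.

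On the lower side no locus passed in edgeR or DESeq2, and the adjusted p was 0.9999 at each of the 10 in edgeR. LOC680770, now Skida1, which encodes a protein with a SKI/DACH domain, lies on chromosome 17 from 84821651 to 84827860. It had 33 and 25 counts in the controls, then 9 and 7 with OGD, at a log2 fold change of -1.78 (SE 0.38). It overlaps the locus klogo, and with overlapping loci merged the log2 fold change was -0.52. LOC686092, now Tmem258b (chromosome 9, 61552400 to 61552724), from the family of a subunit of the oligosaccharyltransferase, had 49 and 40, then 15 and 16 counts (log2 fold change -1.45, SE 0.32). RGD1560796, now Zfp280d, a zinc finger gene on chromosome 8 (78901063 to 78910496), had 146 and 74, then 34 and 17 counts, or 41.3 ± 16.7 CPM and 9.95 ± 4.04 CPM (SD, n = 2). In each of these 3 the lower control was above the higher OGD library.

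RGD1306508, now Erlec1 (chromosome 14, 115314248 to 115337037), named for a lectin of the endoplasmic reticulum that handles misfolded glycoproteins, had 155 and 419 counts in the controls, then 98 and 66 with OGD. It overlaps the locus morkaw, and its longer transcript NONRATT010218.2 held 127 and 404, then 78 and 47 of these counts. Control replicate 2 stood far above the other 3 libraries. RGD735140, now Gpcpd1, a glycerophosphocholine phosphodiesterase gene, had 229 and 402, then 173 and 124 counts. RGD1311362, now Ntaq1, an amidase of N-terminal glutamine, had 23 and 64, then 16 and 4 counts. Both had their highest count in control replicate 2. LOC502201, now Lrrc29, had 43 and 68, then 32 and 20 counts. RGD1304624, now 2700097O09Rikl, had 54 and 36, then 26 and 20, and overlaps the locus kawtey. LOC685771 had 18 and 25, then 8 and 9, and RGD1307264 had 21 and 22, then 13 and 10.

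Current names were used to group the loci by role. The groups go by the first letters of a symbol or by RefSeq gene type, so a gene's role can differ from its group. The 15 loci named for ubiquitin enzymes and cullin 3 adaptors include Kctd17. Of them 14 were detected in every library and 10 tested, with 1 called (beside 0.0835% of all tested loci) and a median log2 fold change of 0.092. Groups did not overlap at 3 higher and 0 lower loci of the 10, beside 14.0% of all tested loci in each direction. Apart from Kctd17 and Ubox5, Rnf220, a RING ubiquitin ligase gene listed as LOC500532, had 13 and 9 counts in control and 13 and 21 with OGD; its groups did not overlap after TMM scaling, but OGD replicate 1 and control replicate 1 had the same count. The deubiquitinase loci Usp34, at 95 and 59, then 65 and 42 counts, and Usp21, at 67 and 27, then 43 and 29, overlapped between groups.

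The 20 zinc finger loci were detected in every library, and 16 were tested. Of these, 0 were called and 1, Zfp280d, had an unadjusted p under 0.05. Groups did not overlap at 2 higher (12.5%) and 3 lower (18.8%) loci, beside 14.0% of all in each direction, with a median log2 fold change of -0.090. Zfp317 had 180 and 155 counts in the controls, then 222 and 198 with OGD, and Znfx1 had 33 and 35, then 19 and 22. Their log2 fold changes were 0.38 and -0.67, so the zinc finger loci lay on both sides of 0. Zc3h11a was the most abundant, with 1064 and 843 counts in the controls, then 920 and 860 with OGD.

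Of 36 loci named for coiled-coil (Ccdc) and FAM genes, 18 were tested and 0 called. Their median log2 fold change was 0.20, with 14 above 0 and 4 below, beside a median of -0.0018 over all tested loci. Groups did not overlap at 4 higher loci (22.2%) and 1 lower (5.56%), beside 14.0% of all tested loci in each direction. Besides Fam193a, Ccdc47, which encodes a calcium-binding protein of the endoplasmic reticulum, had 90 and 79 counts in the controls, then 114 and 103 with OGD. Ccdc186, the lower one, had 620 and 581, then 494 and 532 counts. Of 26 transmembrane and solute carrier loci, 12 were tested and 0 called, with a median of 0.072. Groups did not overlap at 4 higher (33.3%) and 2 lower (16.7%), beside the same 14.0%. Tmem219 had 218 and 165, then 249 and 201 counts, and Tmem220 had 39 and 38, then 56 and 51. The 2 lower loci were Tmem258b, described above, and Tmem214, with 25 and 34, then 17 and 21 counts.

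**Figure D5:**
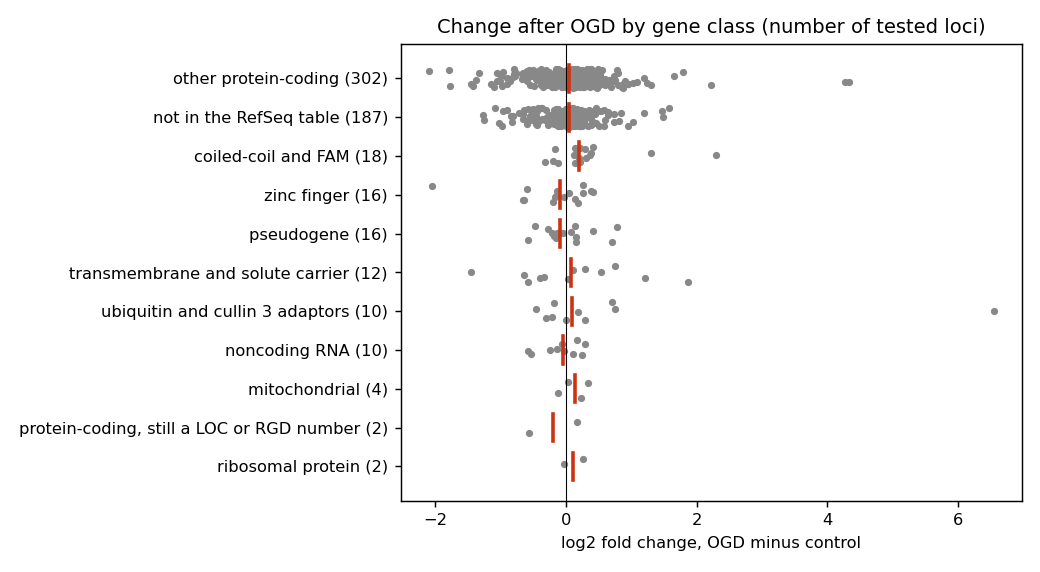
Fitted log2 fold change, OGD minus control (horizontal axis), of each tested numbered locus (points), by class of the current gene name, with the number tested in parentheses and the class median as a red line. Medians lie between -0.198 and 0.200 in all 11 classes, and Kctd17 is the point at 6.55.

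Of 38 loci typed as noncoding RNA genes, 19 were detected in every library and 10 tested, with 0 called and a median log2 fold change of -0.046. LOC102553018 had 382 and 562 counts in the controls, then 301 and 463 with OGD, and LOC102548225 had 200 and 220, then 203 and 229. Of 8 loci grouped as mitochondrial by symbol alone, Tom1l1 among them, 4 were tested, and at all 4 the groups overlapped. Cox14, an assembly factor of cytochrome c oxidase, had counts of 185 and 209, then 184 and 166. Loci with no RefSeq entry used numbered 423, of which 187 were tested and 0 called, with 26 higher (13.9%) and 27 lower (14.4%) without overlap, close to the 14.0% of all tested loci in each direction. The other protein-coding loci numbered 537, of which 302 were tested and 0 called, with 52 higher (17.2%) and 37 lower (12.3%) without overlap.

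Pseudogenes and ribosomal protein loci share sequence with near-identical copies, so their counts are uncertain. Of 59 pseudogene loci 16 were tested, with 0 called, 2 higher and 2 lower without overlap (12.5% each, beside 14.0% of all tested loci), and a median log2 fold change of -0.091. Rps15-ps19 had 248 and 257 counts in the controls, then 215 and 221 with OGD, and H3f3a-ps3 had 224 and 235, then 266 and 225. The 2 ribosomal protein loci were Rpl10al3, at 369 and 430, then 443 and 475 counts, and Rpl12, at 172 and 137, then 133 and 154. None of these 4 passed the adjusted threshold.

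Several loci differed more by replicate number than by treatment. Between the libraries numbered 2 and those numbered 1, edgeR called 3 tested numbered loci (0.518%), beside 1.33% of all tested loci, and 95 had an unadjusted p under 0.05 (16.4%, beside 16.5% of all). For OGD against control the called shares were 0.173% of numbered loci and 0.0835% of all. The shares with an unadjusted p under 0.05 in edgeR were 2.59% and 2.33%. RGD1560812, now Ccdc71l, had 152 and 395 counts in the controls, then 167 and 418 with OGD (log2 fold change 1.49, number 2 minus number 1, adjusted p = 0.0220 in edgeR). LOC678709, now Grlf1-ps1, had 27 and 138, then 28 and 103 counts (2.26, adjusted p = 0.0246). LOC360919, now Albfm1, had 32 and 93, then 26 and 121 counts (2.02, adjusted p = 0.0405). In these 3 both number 2 libraries were above both number 1 libraries.

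The opposite order was found at 3 loci that did not pass. RGD1560020_predicted, now Myb, a transcription factor of proliferating progenitors, had 44 and 5 counts in the controls, then 52 and 1 with OGD (adjusted p = 0.0529 in edgeR). LOC680549, now Pknox2, a homeobox gene, had 20 and 0, then 22 and 0 counts, where 0 allows up to 3 (adjusted p = 0.0528 in edgeR). RGD1303232, now Pyroxd2, had 50 and 11, then 66 and 11 counts (adjusted p = 0.0552 in edgeR). The labels do not say what the replicate number marks. Beside these differences, the locus of the fibroblast collagen gene Col1a1 had 313 and 693 counts in the controls, then 329 and 593 with OGD, and that of the astrocyte filament gene Gfap had 100 and 61, then 139 and 51. Their part in the results was not tested.

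At 3 tested numbered loci (0.518%) a single library stood at least 10-fold below the other 3 libraries, beside 0.741% of all tested loci with a library 10-fold above or below. LOC501546, now Huwe1, a HECT ubiquitin ligase gene, had 424 and 421 counts in the controls, then 6 and 390 with OGD. Without OGD replicate 2 its log2 fold change was -6.13 (SE 0.45, adjusted p = 0.0492 in edgeR), and without OGD replicate 1 it was 0.028. RGD1560871 had 7 and 1732, then 1099 and 1514 counts. LOC689852, now Psmf1, a proteasome inhibitor gene, had 0 and 40, then 41 and 36 counts. The odd library was control replicate 1 at RGD1560871 and Psmf1 and OGD replicate 1 at Huwe1.

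The remaining 589 loci had too few reads for the test. The 5 of them with the most reads were RGD1307396, LOC679869, LOC690057, LOC360721 and RGD1310081. RGD1307396, now Medag, an adipogenesis gene, had 2 and 8 counts in the controls, then 44 and 1 with OGD, so 1 library held most of its reads. LOC679869, now Tcf7l2, a transcription factor of the Wnt pathway, had 30 and 9, then 8 and 5 counts. LOC360721, now Fam162a, a mitochondrial protein gene known to respond to hypoxia, had 20 and 9, then 10 and 6 counts. LOC690057, now Moap1-ps1, had 9 and 10, then 10 and 17 counts. RGD1310081, now Cplane1, a gene of primary cilium assembly, had 13 and 10, then 10 and 8 counts.

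The lncRNA counts summed to 2607020 and 2631684 in controls 1 and 2, and 2646300 and 2513804 in OGD 1 and 2. Replicates of a group differed by more than sampling noise: the chi-square per locus was 17.6 between controls and 15.9 between OGD libraries. Loci at marker genes were looked up by name, and each is a transcript listed as noncoding, whose counts could include the marker's messenger RNA. Of 10 astrocyte markers 4 were listed, Gfap, Slc1a3, Slc1a2 and Aldoc, summing to 53.7 and 32.7 CPM in control and 64.6 and 29.4 CPM after OGD. Of 10 neuron markers 5 were listed, summing to 94.7 and 114, then 111 and 115 CPM. Of these, Syn1 had 2 and 1 counts in the controls, then 98 and 45 with OGD (adjusted p = 0.185 in edgeR), higher with OGD as Kctd17 was. The other tested neuron loci, Gria2 and Rbfox3, stood at -0.23 and -0.56, and the median of the 3 was -0.23. Of these 3 neuron loci, edgeR called 0 and DESeq2 called 1. The part of these loci in the results was not tested. Microglia and macrophage markers (4 of 10) summed to 31.8 and 44.5, then 15.5 and 45.7 CPM, and fibroblast markers (2 of 6) to 169 and 328, then 184 and 310 CPM. Of the microglia and macrophage loci, Ptprc had 58 and 91 counts in the controls, then 13 and 71 with OGD. Tyrobp went the other way, with 5 and 8, then 12 and 29. Cd68 had 18 and 16, then 15 and 13, and Aif1 had at most 2 counts. Oligodendrocyte markers (3 of 8) summed to 8.44 and 16.3, then 7.94 and 9.55 CPM, with Mbp at 0 in 3 libraries, and the endothelial marker listed (1 of 6), Pecam1, had at most 6 counts. In bulk RNA, fewer cells of a type and less RNA per cell cannot be told apart.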

How the data were processed

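The authors deposited 1 table per library with whole-number read counts and FPKM per transcript, per the file headers. Per the submitters' processing notes, HISAT2 and StringTie were used; no version is listed. How reads were counted, and whether by strand, is not given in the sources used here. Those notes name the mouse build mm9, but the tables hold rat Ensembl identifiers and a chromosome 20, so their coordinates are printed without a build name. The library totals that the deposited FPKM imply are 24949814 and 26371055 (control) and 24934040 and 25016962 (OGD), of which lncRNA counts are 9.98% to 10.6%.

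Counts of transcripts sharing a gene name on 1 chromosome were summed to loci, and FPKM were summed likewise. Loci were tested with edgeR 4.0.16 (R 4.3.3): filterByExpr, TMM, and the quasi-likelihood test on group, with Benjamini-Hochberg adjustment over 9581 loci at 0.05. Standard errors are the absolute log2 fold change over the root of F. CPM of group means were TMM-scaled over tested loci. CPM of marker sums were counts over each library's total of lncRNA counts, without TMM scaling, so marker sums and group means are not on the same scale. Intervals are exact binomial, on counts scaled by TMM library sizes. DESeq2 1.42.0, other scalings and filters, unsummed transcripts, merged loci, a replicate block and each library left out were alternatives. Scripts were tested on simulated counts.

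Named loci are Kctd17; per direction the 10 of smallest unadjusted p whose groups do not overlap and average 20 or more counts in either group; the 10 with most reads; the 5 highest not tested; and 3 per direction between replicate numbers. Class examples were picked after their values were seen. The members and lists were chosen with earlier results of these data known.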

Additional observations from a re-analysis of the deposited data

How the results depend on the processing

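DESeq2 called 3 numbered loci in place of 1. An unfiltered edgeR test called 0 (26 had a raw p under 0.05), and a test of single transcripts called 0 (22 by raw p). A raw p under 0.05 joined to a 2-fold change took 13. Leaving out a library gave 0 to 2: the 0 came without control replicate 1, control replicate 2 or OGD replicate 1 (31, 19 and 17 by raw p), and the 2, Kctd17 and Huwe1, without OGD replicate 2, where the lone library is taken to vary as the pair does. DESeq2 was not run on those fits. Over all loci the 8 calls turned into 38 in DESeq2, 0 unfiltered (403 by raw p), 14 where every library of 1 group had at least 10 counts, 1 for single transcripts, 159 by raw p joined to 2-fold, and 0 to 12 with a library left out. With the replicate number as a block, 21 of all loci and 1 numbered locus passed; deviations of same-numbered libraries correlated at 0.300 over all tested loci and 0.271 over numbered loci. Kctd17 also lost its call unfiltered (adjusted p = 0.0596 in edgeR) and unsummed (0.0544).

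The median log2 fold change of numbered loci lay between -0.0016 and 0.0578 with a library left out. Their share of reads was 0.319% (control) and 0.323% (OGD) of the FPKM-implied totals, and 2.91% and 2.94% of lncRNA counts without Cnn2. Detection in every library fell from 865 to 444 loci at a minimum of 10 counts. Of 429 values for named loci, 392 kept direction and side, 5 at Kctd17 lost the call, 2 gained it with DESeq2, and 30 changed sign, at 15 loci that were not called. With the replicate block, Mbnl2 went to 0.012 and Myb to -0.12, and unsummed, LOC100911851 went to 0.051. With a library left out, log2 fold changes ranged -0.28 to 0.053 at Cnn2, -0.086 to 0.089 at C17h5orf24, -0.24 to 0.084 at Ski, -0.26 to 0.31 at Mbnl2, -0.88 to 1.88 at Lbh, -0.081 to 0.37 at LOC108348049, -0.26 to 0.85 at LOC100912578, -0.22 to 0.0015 at LOC100911851, -0.19 to 0.10 at Atxn1l, -0.76 to 1.11 at Ccdc71l, -1.62 to 1.44 at Grlf1-ps1, -1.31 to 1.37 at Albfm1, -6.24 to 6.42 at Pknox2, -4.27 to 2.32 at Myb and -1.28 to 1.75 at Pyroxd2. The cause was not tested, except that fewer samples or more loci enter some fits. At this depth a locus at 0 counts in a library cannot be told from one at up to 3.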
